A study of Mus musculus with 32 samples.

Results

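The comparison asked how mouse lung endothelial cells (ECs) given TNF and IFN together differed from those given IFN alone. Wording such as TNF added to IFN means this contrast, not an order in time. The cytokines were TNFα (10 ng/mL, written TNF) and IFNγ (1000 U/mL, written IFN), left on the cells for 16 h. The members were chosen by their labels: 4 libraries of si-control + TNF + IFN against 4 libraries of si-control + IFN, which are 8 of the 32 libraries in the series. All cells belonged to 1 established line, Veravec, and had been transfected on successive days with a control siRNA that both groups carry. The labels call the 4 libraries of a group biological replicates, so the p-values below measure the spread between these samples of 1 line.

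TNF binds its receptors on ECs and frees NF-κB from its inhibitors, which switches on adhesion molecules, chemokines and the inhibitors that later restrain NF-κB itself. IFNγ acts through JAK kinases and STAT factors, which raises IRF1, antigen presentation genes and guanylate-binding proteins. Inflamed vessels commonly meet both cytokines together, and ECs under them display ligands for leukocytes and lose part of their resting, anticoagulant program.

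The 8 libraries held 17734651 to 23657734 counts each. Their largest principal component (50.2% of the variance of log2 CPM) separated the groups and the second (26.3%) separated replicates 1 and 2 from replicates 3 and 4 in both groups, for which the labels give no batch. For pairs of libraries in a group, the chi-square per degree of freedom was 3.63 to 41.6 within these replicate sets. Across the sets it was 57.7 to 88.4. A p-value below from 1 set alone therefore covers only the spread within that set. All 10 endothelial markers were present in both groups, with a summed level between 5040 and 8440 CPM with IFN and between 3560 and 5280 CPM with both cytokines (CPM, counts per 1000000 counts with TMM scaling). Epithelial markers summed to at most 4.69 CPM. The leukocyte markers Cd3e, Adgre1 and Nkg7 were at 0 in all 8 libraries, and the summed leukocyte level of 101 to 188 CPM came mainly from Cd68 and Lyz2. Fibroblast markers summed to 230 to 430 CPM over both groups, chiefly Thy1, while Lum and Dpt were at 0. Within that list Dcn (decorin) rose (1.26 to 27.5 CPM on average, log2 fold change 4.44, adjusted p = 2.19e-05) and Col3a1 fell. Pericyte and smooth muscle markers summed to 18.7 to 69.5 CPM, chiefly Acta2. Mitochondrial genes took 3.25% to 4.89% of counts with IFN and 2.73% to 3.65% with both. The part of these shifts in the results was not tested, and in bulk RNA fewer cells of a kind and less RNA per cell cannot be told apart.

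TNF changed a large part of the transcriptome of IFN-treated ECs. Of 15250 genes tested, 2381 were called higher (15.6%) and 2052 lower (13.5%) at an adjusted p under 0.05 by edgeR's two-sided quasi-likelihood test with Benjamini-Hochberg adjustment, which gives every adjusted p and every log2 fold change (± SE) below. At least a 2-fold change was found for 769 of the genes called higher and 678 of those called lower, and at least a 4-fold change for 329 and 226. In 2256 genes (14.8%) all 4 si-control + TNF + IFN libraries lay above all 4 si-control + IFN libraries, and in 1991 genes (13.1%) all 4 lay below. Over all genes the median log2 fold change was −0.0102. Of the genes called higher, 2371 of the 2374 that could be fitted in replicates 1 and 2 alone were also higher there, and 2359 of 2362 in replicates 3 and 4 alone. For the genes called lower these numbers were 2043 of 2043 and 2021 of 2023.

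The largest rise among abundant genes was that of Nos2 (ENSMUSG00000020826), the inducible nitric oxide synthase. Nos2 measured 5.604, 16.07, 1.364 and 1.944 CPM in replicates 1 to 4 of si-control + IFN and 1703, 1412, 965 and 974 CPM with TNF added. Every library with TNF lay far above every library without it, and the log2 fold change was 7.65 ± 0.62 (adjusted p = 2.78e-10), or 8.75 without replicate 2 of si-control + IFN and 9.19 in replicates 3 and 4 alone. Cldn1, a tight junction claudin, rose from between 0.504 and 1.2 CPM to 30.6, 34.4, 101.9 and 90.97 CPM (6.37 ± 0.42, adjusted p = 5.12e-12). Mmp13, a collagenase, rose from 0.504, 0.52, 0.218 and 0.54 CPM to 64.9, 42.8, 25.6 and 23.8 CPM (6.44 ± 0.37, adjusted p = 3.79e-13). The 2 replicate sets differed in opposite ways here, since Cldn1 was higher in replicates 3 and 4 and Mmp13 in replicates 1 and 2 of si-control + TNF + IFN. Adtrp, an endothelial regulator of coagulation, rose from 0.336, 0.156, 0.0545 and 0.054 CPM to between 14.3 and 18.4 CPM (6.76 ± 0.43, adjusted p = 1.58e-11), or by 7.48 without si-control + IFN replicate 1.

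Several of the largest rises began from no or almost no reads. Pglyrp2, a peptidoglycan amidase, had 0 counts in all 4 si-control + IFN libraries and 2.92 to 5.13 CPM with TNF added. Taking 3 counts per library as the floor that a count of 0 allows (a mean of 0.162 CPM), Pglyrp2 was at least 25.7-fold higher. The same held for Il5ra, the interleukin-5 receptor α chain, at 2.33 to 4.998 CPM (at least 21.2-fold higher), and for Cybb, the catalytic subunit of the phagocyte NADPH oxidase, at 1.43 to 2.81 CPM (at least 14.3-fold higher). Saa3, an acute-phase apolipoprotein, went from 5 counts in all to 1583, a ratio of 311 (95% exact counting interval 133 to 960). Madcam1 (ENSMUSG00000020310), the mucosal ligand of integrin α4β7, went from 2 counts to 470, a ratio of 231 (63.6 to 1910). H2-M2 (ENSMUSG00000016283), a class Ib MHC gene, went from 2 counts to 234, a ratio of 115 (31.5 to 956). In Saa3, Madcam1 and H2-M2 replicates 1 and 2 of si-control + TNF + IFN were several times higher than replicates 3 and 4, and these ratios and floors cover counting error only.

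Of the 9 among the 10 largest rises that had a promoter in the table searched (Nos2 had none), the 2 with a match to the κB consensus, the DNA element that NF-κB binds, are shown with the 250 bases before their start from RefSeq on GRCm38.p6. The Madcam1 sequence is chr10:79664309-79664558 on the + strand and the H2-M2 sequence is chr17:37483555-37483804 on the − strand. Capitals mark the κB matches, which begin 83 and 70 bases before the start of Madcam1 and 180 and 146 bases before that of H2-M2.
Madcam1: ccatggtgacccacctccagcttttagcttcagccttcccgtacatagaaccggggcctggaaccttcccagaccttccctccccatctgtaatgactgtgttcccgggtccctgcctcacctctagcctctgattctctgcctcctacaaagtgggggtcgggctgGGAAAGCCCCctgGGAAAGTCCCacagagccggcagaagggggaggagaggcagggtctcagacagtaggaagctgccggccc
H2-M2: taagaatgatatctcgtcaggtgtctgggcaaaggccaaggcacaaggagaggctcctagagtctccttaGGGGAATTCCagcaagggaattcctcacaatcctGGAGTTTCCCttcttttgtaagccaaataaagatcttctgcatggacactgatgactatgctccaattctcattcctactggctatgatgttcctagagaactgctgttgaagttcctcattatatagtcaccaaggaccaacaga
A promoter of this kind was matched for 10527 of the 15250 genes tested. On either strand, 596 of these genes (5.66%) held a κB match in at least 1 promoter. Among all genes called higher the share was 132 of 1784 (7.4%), and among all called lower 80 of 1527 (5.24%). Among genes called higher by at least 4-fold the share was 40 of 214 (18.7%), and among genes called lower by at least 4-fold it was 10 of 149 (6.71%). In the list of NF-κB subunits and feedback inhibitors 10 of 23 genes (43.5%) held a match. So did 4 of 7 CXC chemokines (57.1%) and 2 of 7 genes of the CC chemokine and fractalkine list (28.6%). The share was also high for MHC class I presentation (8 of 20, 40.0%), a list with few calls on IFN. For antiviral genes, most of which were called higher, it was 2 of 23 (8.7%), nearer the 5.66% of all matched genes. These shares describe the letters in the window and were not tested.

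Among the 10 largest falls, Aqp1 (ENSMUSG00000004655), the water channel of endothelium, measured 33.9, 60.7, 20.8 and 23.6 CPM in si-control + IFN and 0.577, 0.312, 0.431 and 0.159 CPM with TNF added. The groups were far apart, with a log2 fold change of −6.52 ± 0.65 (adjusted p = 1.22e-08). Col3a1 (ENSMUSG00000026043), the α1 chain of type III collagen, fell from 20.7, 22.2, 34.6 and 36.1 CPM to 0.336, 0.208, 0.801 and 0.37 CPM (−6.07 ± 0.42, adjusted p = 1.15e-11). Galnt15, a glycosyltransferase, fell from 9.64 to 13.1 CPM down to 0.212 to 0.529 CPM (−4.84 ± 0.58, adjusted p = 2.48e-07). Chil5, a chitinase-like protein, fell from 11.1 to 36.3 CPM down to 0.635 to 0.865 CPM (−4.87 ± 0.81, adjusted p = 3.87e-05).

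Scn3a, a voltage-gated sodium channel subunit, measured 27.74, 31.99, 1.636 and 2.052 CPM in si-control + IFN and 0 to 0.817 CPM with TNF (−5.51 ± 1.55, adjusted p = 0.00769). Its groups did not overlap, but the starting level differed between the replicate sets, and its log2 fold change was −4.90 without si-control + IFN replicate 2 and −6.52 without si-control + TNF + IFN replicate 1. The potassium channel Kcnk10 fell from 1.67 to 8.17 CPM down to 0.0529 to 0.247 CPM (−4.80 ± 0.83, adjusted p = 8.39e-05). Another potassium channel, Kcnq3, held 128 counts in all in si-control + IFN, nearly all in replicates 1 and 2, and 1 count with TNF, a ratio of 130 (22.9 to 5180). The other named falls were Ptprq, a receptor phosphatase (83 counts against 2, a ratio of 42.2, 11.3 to 354), Lmcd1 (−4.94 ± 0.57, adjusted p = 1.19e-07) and Ccdc3 (−4.79 ± 1.21, adjusted p = 0.00348). Lmcd1 fell by 7.66 on the log2 scale without si-control + TNF + IFN replicate 1, which held most of its counts in that group, and Ccdc3 by 5.51 without replicate 2.

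**Figure D1:**
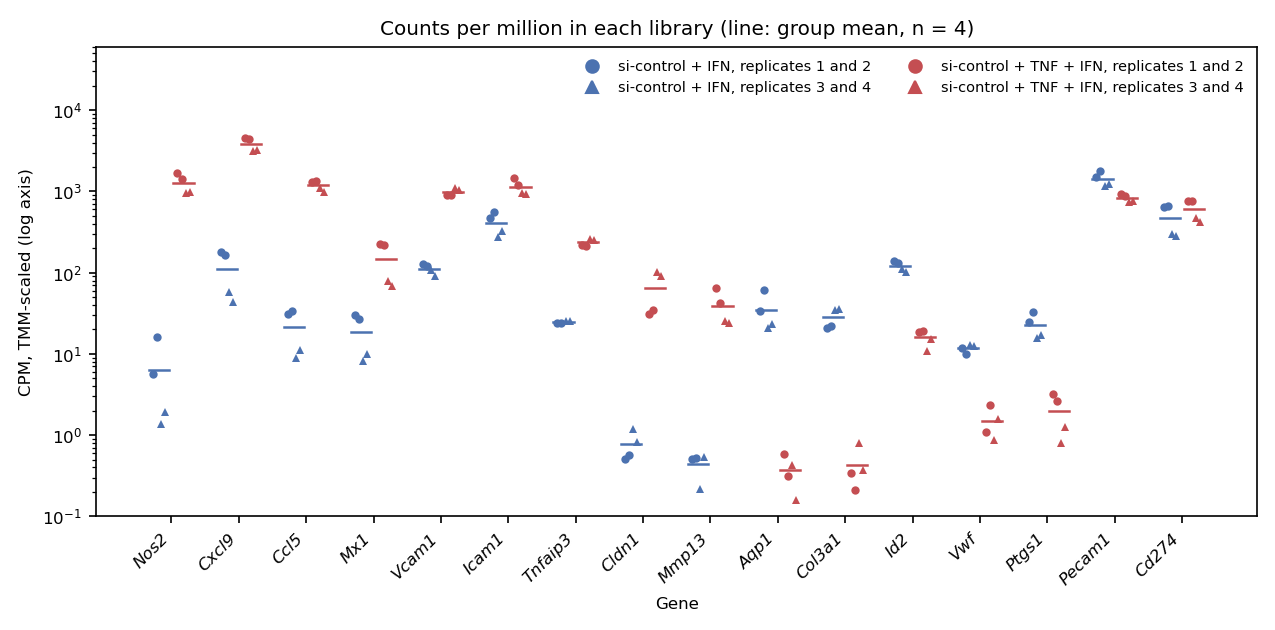
CPM of 16 genes in each of the 8 libraries, on a log axis, with si-control + IFN in blue and si-control + TNF + IFN in red; circles are replicates 1 and 2, triangles replicates 3 and 4, and lines the group means. Nos2 rose from at most 16.1 CPM to at least 965 CPM, Aqp1 fell from at least 20.8 CPM to at most 0.577 CPM, and the 2 groups of Cd274 overlap.

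Genes of the NF-κB pathway itself rose with TNF added. Of 28 subunits and feedback inhibitors tested, 18 were called higher (64.3%) and none lower (median log2 fold change 0.935). List counts here and below are to be read against the 15.6% called higher and 13.5% called lower over all genes. Tnfaip3, the deubiquitinase A20 that restrains NF-κB, measured 24.2, 24.3, 25.1 and 25.4 CPM in si-control + IFN and 218, 214, 262 and 255 CPM with TNF. Its replicates were tight and far apart between groups (3.26 ± 0.19, adjusted p = 3.11e-13). Nfkbia, which encodes the inhibitor IκBα, rose from between 41.6 and 106 CPM to between 215 and 278 CPM (1.77 ± 0.22, adjusted p = 6.64e-07), by 1.18 in replicates 1 and 2 alone and by 2.52 in replicates 3 and 4 alone. Tnip3, an A20-binding inhibitor, went from 2 counts, both in 1 library, to 62 counts (ratio 30.5, 8.09 to 257).

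Of 15 TNF ligands, receptors and adaptors tested, 6 were called higher (40.0%) and 3 lower (20.0%), with a median of 0.149. Tnfrsf1a, the main TNF receptor, fell from 270, 316, 238 and 281 CPM to 196, 178, 161 and 158 CPM, with no overlap (−0.67 ± 0.11, adjusted p = 1.99e-05). The second TNF receptor, Tnfrsf1b, also in this list, rose instead (0.45, adjusted p = 0.0078). Ltbr, the lymphotoxin β receptor, fell by 0.44 on the log2 scale (adjusted p = 0.00828), with overlapping groups, and was not called without si-control + IFN replicate 2 (−0.32, adjusted p = 0.0709). Ltb, its ligand subunit, went from 2 counts to 127 (ratio 62.5, 16.9 to 521). Tnf itself had 0 counts in si-control + IFN and 11 in all with TNF, where both groups lie at or under the floor, so no fold is given, and its call (adjusted p = 0.0209) depended on replicate 1 of si-control + TNF + IFN (0.0534 without it) and was not made with replicates 3 and 4 by themselves (0.12).

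Chemokines rose almost throughout. All 10 CXC chemokines tested were called higher (median log2 fold change 3.0), as were 9 of 11 CC chemokines and fractalkine (median 3.26), and none was lower. Cxcl9 (ENSMUSG00000029417), a ligand of CXCR3 on activated T cells, measured 179.9, 167, 57.7 and 43.8 CPM in si-control + IFN and 4547, 4359, 3149 and 3216 CPM with TNF. The groups were well separated although replicates 1 and 2 stood higher in both (5.09 ± 0.57, adjusted p = 9.23e-08). The other CXCR3 ligands followed, with Cxcl11 rising from a mean of 13.2 ± 11.7 to 293 ± 131 CPM (SD, n = 4; 4.47 ± 0.54, adjusted p = 3.25e-07) and Cxcl10 from 289 ± 141 to 1748 ± 306 CPM (2.60 ± 0.29, adjusted p = 6.93e-08). Ccl5, which draws T cells and monocytes, rose from 31.3, 33.9, 8.89 and 11.2 CPM to 1311, 1353, 1092 and 987 CPM (5.797 ± 0.4164, adjusted p = 2.38e-11). Ccl2, the main monocyte chemokine, rose from 1154 ± 421 to 3871 ± 809 CPM (1.75 ± 0.31, adjusted p = 7.13e-05). Cxcl3, a neutrophil chemokine, rose from between 0.672 and 1.78 CPM to between 22.97 and 55.46 CPM (5.08 ± 0.46, adjusted p = 2.59e-09), Ccl9 by 4.85 ± 0.59 (adjusted p = 3.5e-07) and Cx3cl1, membrane-bound fractalkine, by 1.79 ± 0.18 (adjusted p = 2.1e-08).

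Among interleukins and colony-stimulating factors 9 of 16 tested were called higher and none lower (median 1.64). Il34, a ligand of the CSF1 receptor, rose from between 0.0545 and 0.216 CPM to between 2.28 and 3.23 CPM (4.44 ± 0.47, adjusted p = 3.17e-08). Il27, a subunit of interleukin-27, rose from between 0.0545 and 0.208 CPM to between 2.06 and 4.23 CPM (4.35 ± 0.44, adjusted p = 1.83e-08). In both genes all libraries with TNF lay far above all libraries without it.

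Adhesion molecules split. Of 15 leukocyte adhesion molecules tested, 4 were called higher (26.7%) and 4 lower (26.7%), with a median of −0.329. With the replicate number as a block 5 were higher and 7 lower. That block called more of all genes too, 21.8% higher and 20.1% lower, against which its list counts here and below are to be read. Vcam1 (ENSMUSG00000027962), the ligand of integrin α4β1, measured 129, 121, 108 and 92.1 CPM in si-control + IFN and 898, 912, 1092 and 1040 CPM with TNF (3.13 ± 0.12, adjusted p = 4.12e-17). Icam1 rose from 477, 562, 271 and 323 CPM to 1451, 1198, 946 and 939 CPM (1.47 ± 0.22, adjusted p = 8.08e-06), and Sele, E-selectin, from 20.5, 15.3, 38.1 and 34.1 CPM to 43.9, 43.7, 68.0 and 70.4 CPM (1.06 ± 0.25, adjusted p = 0.00167). In these 3 genes every library with TNF lay above every library without it. Selp, P-selectin, went down instead, from between 377 and 542 CPM to between 212 and 270 CPM (−0.88 ± 0.22, adjusted p = 0.0029). Jam2, a junctional adhesion molecule, fell by 1.66 on the log2 scale (adjusted p = 0.0108) with overlapping groups, a call lost without replicate 3 of si-control + IFN (−1.25, adjusted p = 0.0683) and in a fit of only the 8 libraries (−1.69, adjusted p = 0.0718).

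Of 17 co-stimulatory and inhibitory ligands tested, 6 were called higher (35.3%) and 1 lower (5.88%), with a median of 0.427. Cd40 (ENSMUSG00000017652), the receptor for CD40 ligand on T cells, measured 0.841, 0.884, 0.709 and 0.216 CPM in si-control + IFN and 16.3, 16.3, 7.83 and 8.84 CPM with TNF (4.21 ± 0.34, adjusted p = 2.78e-10). Tnfsf4, the OX40 ligand, rose from 1.63, 1.67, 2.67 and 1.40 CPM to 3.70, 5.21, 7.83 and 7.41 CPM (1.70 ± 0.24, adjusted p = 4.38e-06). Icosl, the ligand of ICOS, rose from 0.056, 0, 0 and 0.27 CPM to 1.06, 0.781, 0.493 and 1.11 CPM (3.33 ± 0.61, adjusted p = 0.000119), and by 5.19 without si-control + IFN replicate 4, which held most of its few reads. All 3 had groups that did not overlap. Cd274, which encodes PD-L1, measured 649, 661, 297 and 287 CPM in si-control + IFN and 758, 771, 466 and 422 CPM with TNF. These groups overlapped and the difference was not called (0.35 ± 0.23, adjusted p = 0.279), but it was with the replicate block (0.38, adjusted p = 0.0411) and in replicates 3 and 4 alone (0.61, adjusted p = 8.17e-07). The last p-value covers only the spread within that set. Vsir, which encodes the checkpoint ligand VISTA, fell by 1.05 on the log2 scale (adjusted p = 0.012), or by 0.90 without si-control + TNF + IFN replicate 2 (adjusted p = 0.0501).

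Interferon-inducible genes did not move as 1 block. The antiviral genes rose further: 26 of 31 tested were called higher and none lower (median 1.02). Mx1, a dynamin-like GTPase that blocks viruses, measured 29.9, 26.5, 8.18 and 9.83 CPM in si-control + IFN and 228, 218, 79.4 and 68.7 CPM with TNF (3.0 ± 0.47, adjusted p = 1.73e-05). Rsad2, which encodes viperin, rose from 386, 332, 97.1 and 96.5 CPM to 1816, 1872, 450 and 437 CPM (2.33 ± 0.46, adjusted p = 0.00027). Both genes were several times higher in replicates 1 and 2 than in 3 and 4 of each group, with no overlap between groups.

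Guanylate-binding proteins and immunity-related GTPases, which attack vacuoles holding microbes, behaved differently. Of 19 tested, 3 were called higher and none lower (median 0.0674), a share that lay near the 15.6% over all genes. With the replicate block 5 were called higher. Gbp8 rose from between 176 and 201 CPM to between 268 and 328 CPM (0.65 ± 0.20, adjusted p = 0.0132). Gbp2b, at 1.63 to 4.25 CPM without TNF, was called at 1.03 ± 0.39 (adjusted p = 0.0472) with overlapping groups. That call was lost on leaving out any of 5 libraries (0.81 to 1.15), when low counts were not filtered (adjusted p = 0.0658) and in a fit of only the 8 libraries (adjusted p = 0.0922). Gbp2 and Gbp6, picked after their values were seen as abundant members, measured 7170 ± 1593 and 1339 ± 321 CPM with IFN and 6334 ± 605 and 1368 ± 189 CPM with TNF added (−0.18, adjusted p = 0.533, and 0.03, adjusted p = 0.945). Members of this family and the H2-Q genes are close paralogs that can share reads, so their single values are uncertain.

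For MHC class I presentation 5 of 23 genes tested were called higher (21.7%, against 15.6% of all genes) and none lower (median 0.344), and with the replicate block 14 were. H2-Q6 and H2-Q7, class Ib heavy chains, rose the most, H2-Q6 from 183, 193, 33.2 and 40.2 CPM to 999, 880, 310 and 325 CPM (2.48 ± 0.59, adjusted p = 0.00213) and H2-Q7 from 244, 261, 59.9 and 73.3 CPM to 875, 776, 328 and 351 CPM (1.87 ± 0.49, adjusted p = 0.0049). For MHC class II presentation 3 of 14 were called higher (21.4%) and none lower (median 0.647), and with the block 9 were. Ciita, the master regulator of class II genes, measured 238, 278, 100.1 and 124 CPM with IFN and 308, 231, 118 and 119 CPM with TNF, which overlapped (0.07 ± 0.47, adjusted p = 0.934). H2-DMb2, a peptide loading subunit, rose from between 0.873 and 2.65 CPM to between 3.44 and 12.2 CPM (1.97 ± 0.50, adjusted p = 0.00565), and H2-Oa, a loading inhibitor, from 2 counts, both in 1 library, to 69 (ratio 33.9, 9.05 to 286).

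In the interferon receptor, JAK-STAT and IRF list 11 of 23 were called higher and none lower (median 0.368); the block called 12 higher and 2 lower. Irf1 (ENSMUSG00000018899), the transcription factor at the head of the IFNγ response, rose from 839, 918, 595 and 662 CPM to 1219, 1020, 1061 and 1009 CPM, with no overlap (0.52 ± 0.14, adjusted p = 0.00661). Irf5, an inflammatory member of the IRF family, rose from between 1.18 and 1.67 CPM to between 22.5 and 30.2 CPM (4.24 ± 0.28, adjusted p = 5.02e-12). Usp18, which restrains the type I interferon receptor, rose by 1.86 ± 0.31 (adjusted p = 3.18e-05).

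**Figure D2:**
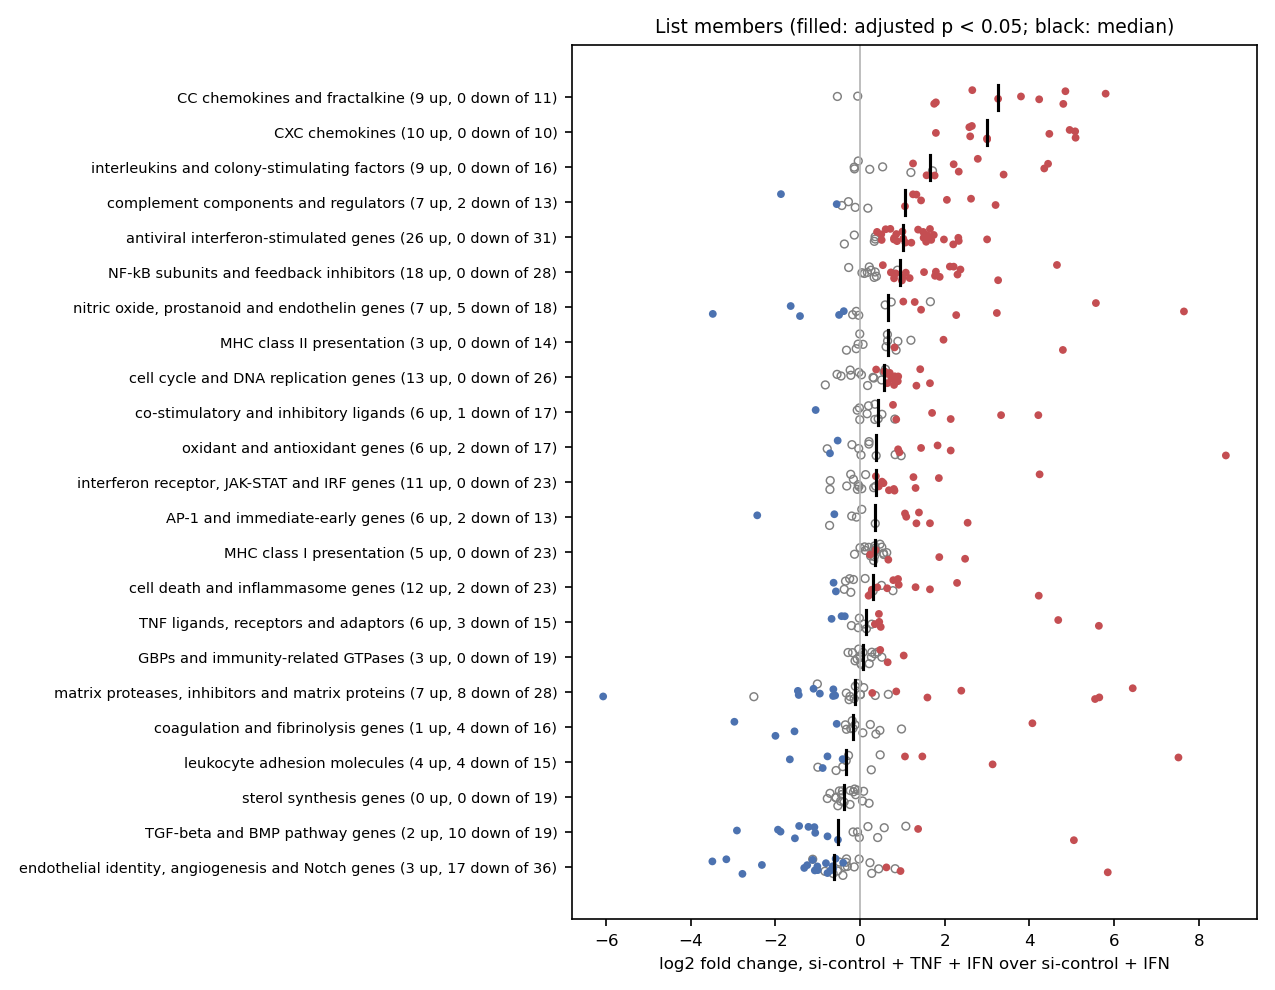
Log2 fold change of si-control + TNF + IFN over si-control + IFN for each tested member of 23 gene lists, ordered by the list's median (black bar); red and blue points passed an adjusted p under 0.05 and open points did not, with their numbers beside each name. Chemokines lie furthest right, endothelial identity genes (3 up, 17 down of 36) furthest left, and guanylate-binding proteins near 0.

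Cell death and inflammasome genes included 12 called higher (52.2%) and 2 lower (8.7%) of 23 tested (median 0.307). Under the replicate block 14 were higher and 4 lower. Fas, the death receptor, rose from between 10.3 and 14.2 CPM to between 43.0 and 74.5 CPM (2.29 ± 0.24, adjusted p = 2.25e-08). Nlrp3, the inflammasome sensor, went from 7 counts to 139 (ratio 19.5, 9.23 to 49.5). The survival gene Bcl2 fell from between 10.5 and 17.6 CPM to between 6.92 and 9.79 CPM (−0.63 ± 0.15, adjusted p = 0.00264), and the death receptor Tnfrsf10b from between 168 and 223 CPM to between 120 and 145 CPM (−0.57 ± 0.12, adjusted p = 0.000592).

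Genes that set vessel tone moved in both directions. Of 18 nitric oxide, prostanoid and endothelin genes tested, 7 were called higher (38.9%) and 5 lower (27.8%), with a median of 0.663. Besides Nos2, Ptges, the inducible prostaglandin E synthase, went from 7 counts to 356 (ratio 50, 24 to 125). Ptgs1, the constitutive cyclooxygenase, fell from between 15.8 and 32.7 CPM to between 0.801 and 3.17 CPM (−3.48 ± 0.59, adjusted p = 4.37e-05). Ednrb, the endothelin B receptor, fell from 132, 163, 122 and 114 CPM to 18.45, 23.01, 64.58 and 64.3 CPM (−1.64 ± 0.42, adjusted p = 0.00398), by 2.84 on the log2 scale in replicates 1 and 2 alone and by 0.87 in replicates 3 and 4 alone. Gch1, which makes the nitric oxide synthase cofactor, and Slc7a2, an arginine transporter, were looked at after their values were seen; Gch1 rose from 41.4 ± 3.35 to 101 ± 26.7 CPM (adjusted p = 5.36e-09) and Slc7a2 from 0.313 ± 0.325 to 2.99 ± 0.581 CPM (adjusted p = 0.000196).

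Of 16 coagulation and fibrinolysis genes tested, 1 was called higher and 4 lower (median −0.177), with 3 and 5 under the replicate block. Vwf, von Willebrand factor, fell from 11.7, 9.83, 12.7 and 12.6 CPM to 1.10, 2.34, 0.863 and 1.59 CPM (−2.97 ± 0.31, adjusted p = 2.93e-08). F8, coagulation factor VIII, fell from 299, 326, 180 and 172 CPM to 76.6, 76.3, 46.6 and 44.8 CPM (−2.0 ± 0.44, adjusted p = 0.000948). Groups did not overlap for either gene.

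Complement genes included 7 called higher (53.8%) and 2 lower (15.4%, near the 13.5% over all genes) of 13 (median 1.06), with 8 and 4 under the block. Cfb, a component of the alternative pathway convertase, rose from between 4.47 and 15.2 CPM to between 68.2 and 125 CPM (3.20 ± 0.56, adjusted p = 6.76e-05). C3 rose from 867, 933, 113 and 128 CPM to 4904, 4127, 1754 and 1756 CPM (2.62 ± 0.85, adjusted p = 0.02); without replicate 3 or 4 of si-control + IFN it was 2.29 to 2.30 and not called, and in replicates 3 and 4 alone 3.86. The complement inhibitor Cd59a fell (−0.55 ± 0.14, adjusted p = 0.00419).

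Endothelial identity, angiogenesis and Notch genes fell more often than they rose: 17 of 36 tested were called lower and 3 higher (median −0.606), against 13.5% lower and 15.6% higher over all genes. The list shares Cdh5, Pecam1, Tek, Tie1, Kdr, Esam, Erg, Eng, Cldn5 and Egfl7 with the endothelial markers, whose summed level was lower with TNF as given above. Cldn5, the claudin of tight endothelial barriers, fell from 32.2, 42.4, 8.13 and 11.6 CPM to 4.13, 3.02, 0.555 and 0.529 CPM (−3.49 ± 0.92, adjusted p = 0.00476). Bmx, an endothelial tyrosine kinase, fell from between 8.91 and 10.1 CPM to between 0.37 and 1.83 CPM (−3.16 ± 0.54, adjusted p = 5.55e-05). Pecam1 (CD31) fell from 1489, 1764, 1171 and 1237 CPM to 925, 883, 737 and 771 CPM, with no overlap (−0.77 ± 0.17, adjusted p = 0.000875). Cdh5, VE-cadherin, measured 1990, 2364, 1305 and 1471 CPM with IFN and 1394, 1267, 1005 and 929 CPM with TNF. Its groups overlapped, and its call (−0.63 ± 0.23, adjusted p = 0.0391) was lost on leaving out any of 5 libraries (−0.67 to −0.45). It was lower with TNF under all 4 replicate numbers, though the numbers are not established as pairs. Cdh5 was called with the replicate block (−0.61, adjusted p = 3.84e-06) and in each replicate set alone (−0.72, adjusted p = 7.33e-05, and −0.52, adjusted p = 4.01e-05). The p-values of the sets cover only the spread within a set and do not restore the call of the main fit. Gja4, the arterial gap junction protein connexin 37, rose instead, from 3 counts to 200 (ratio 65.6, 22.1 to 321), as did Nrp2, a VEGF-C and semaphorin receptor, from between 739 and 796 CPM to between 1406 and 1581 CPM (0.95 ± 0.10, adjusted p = 2.62e-08).

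The TGFβ and BMP list had a similar split, with 10 of 19 tested called lower and 2 higher (median −0.524), or 10 and 4 under the block. Id2, a direct BMP target, fell from 138, 132, 111 and 101 CPM to 18.6, 19.11, 10.97 and 15.13 CPM (−2.91 ± 0.22, adjusted p = 5.33e-11). Grem1, a secreted BMP antagonist, fell from between 0.312 and 0.702 CPM to between 0.0529 and 0.208 CPM (−1.94 ± 0.47, adjusted p = 0.0024), although not in replicates 1 and 2 alone (−1.40, adjusted p = 0.127). The ligand Bmp2 rose from at most 0.52 CPM to 13.98 and 14.32 CPM in replicates 1 and 2 and at most 1.48 CPM in replicates 3 and 4 (5.05 ± 0.78, adjusted p = 1.36e-05), and by 5.87 without si-control + IFN replicate 2. Tgfb2 rose from between 20.0 and 26.5 CPM to between 45.8 and 74.3 CPM (1.37 ± 0.14, adjusted p = 2.14e-08).

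Of 28 matrix genes tested, 7 were called higher and 8 lower (median −0.128). Beside Mmp13 and Col3a1, Mmp9, a gelatinase, went from 2 counts, both in 1 library, to 119 (ratio 58.5, 15.9 to 489), with higher values in replicates 3 and 4. Timp3, a metalloproteinase inhibitor, fell from between 980 and 1483 CPM to between 406 and 469.5 CPM (−1.47 ± 0.17, adjusted p = 8.64e-08).

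AP-1 and immediate-early genes gave 6 higher (46.2%) and 2 lower (15.4%, near the 13.5% over all genes) of 13 (median 0.358). Fosl1 (FRA-1) rose from between 9.38 and 11.5 CPM to between 56.7 and 68.7 CPM (2.54 ± 0.34, adjusted p = 1.71e-06), and the stress gene Ier3 by 1.66 ± 0.34 (adjusted p = 0.000504). Other members of the FOS family fell, Fos from between 8.89 and 25.8 CPM to between 1.29 and 6.10 CPM (−2.43 ± 0.46, adjusted p = 0.000209) and Fosl2 by 0.61 on the log2 scale (adjusted p = 0.0144), a call lost without si-control + IFN replicate 1 or 2 (−0.52 to −0.47).

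Oxidant and antioxidant genes gave 6 higher (35.3%) and 2 lower (11.8%, near the 13.5% over all genes) of 17 (median 0.379). Sod2, the mitochondrial superoxide dismutase, rose from 151, 166, 58.8 and 60.5 CPM to 507, 526, 431 and 457 CPM (2.14 ± 0.36, adjusted p = 4.65e-05). The cytosolic Sod1 fell from between 120 and 155 CPM to between 91.8 and 102 CPM (−0.53 ± 0.16, adjusted p = 0.0116), and glutathione peroxidase Gpx1 fell (−0.71 ± 0.21, adjusted p = 0.011), though not when replicate 4 with IFN, or replicate 1 or 2 with both cytokines, was left out (−0.60 to −0.59).

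Among cell cycle and DNA replication genes 13 of 26 were called higher and none lower (median 0.57), with 16 and 2 under the block. Those called without the block included the replication genes Mcm2 to Mcm7 and Pcna. The mitotic genes Ccnb1, Ccnb2, Cdk1, Aurka, Aurkb, Bub1, Plk1 and Cdc20 and the proliferation marker Mki67 were not called there (−0.822 to 0.565). Ccne1, cyclin E1, rose from between 5.25 and 7.09 CPM to between 15.5 and 21.6 CPM (1.65 ± 0.16, adjusted p = 9.94e-09), and Cdc6, a replication licensing factor, from between 6.76 and 13.6 CPM to between 20.2 and 30.7 CPM (1.42 ± 0.23, adjusted p = 3.24e-05). None of 19 sterol synthesis genes was called without the replicate block (median −0.379), while edgeR with that block called 9 lower. Dnmt1 (ENSMUSG00000004099), the gene targeted in the other arm of the series, measured 86.6, 86.5, 170 and 176 CPM in si-control + IFN and 143, 150, 211 and 203 CPM with TNF. The difference was not called (0.45 ± 0.33, adjusted p = 0.335), but it was in replicates 1 and 2 alone (0.75, adjusted p = 2.47e-06) and in replicates 3 and 4 alone (0.26, adjusted p = 0.0146). The p-values of these sets cover only the spread within a set.

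The next question was whether TNF acted alike in the absence of IFN. The same step without IFN (si-control + TNF against si-control, 8 other libraries) called 2461 genes higher (16.1%) and 2227 lower (14.6%). Of these, 1570 were higher in both, which is 65.9% of the rises with IFN and 63.8% of the rises without, and 1406 were lower in both (68.5% and 63.1%). The difference between the TNF effects, tested as an interaction, was called for 64 genes with a more positive effect under IFN (0.42%) and 99 with a less positive one (0.649%). An unadjusted p under 0.05 was found for 1515 genes, and the replicate block called 299 (1.96%) and 347 (2.28%). With no differences at all, a share of about 0.05 of the 15250 genes tested would pass the unadjusted threshold.

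Most of the 99 genes with a less positive effect were genes that TNF alone induced. TNF called 79 of them higher without IFN and 28 higher with IFN. They included 12 of the 19 guanylate-binding proteins and immunity-related GTPases (18 with the block) and 11 of the 23 MHC class I genes (19 with the block). Without IFN the median log2 effect of TNF was 1.91 for the first list, with 18 of 19 called higher, and 1.49 for the second, with 21 of 23 called higher. Gbp6 went from 14.6 to 146 CPM with TNF alone and lay at 1339 and 1368 CPM with IFN and with both (difference −3.29, adjusted p = 3.06e-06). The proteasome subunit Psmb9, again picked after its values were seen, went from 3.22 to 25.7 CPM with TNF alone and from 156 to 193 CPM on top of IFN (difference −2.68, adjusted p = 2.58e-07). In the promoters of the first list, 10 of 11 matched genes held GAAANNGAA and 6 held the GAS letters TTCNNNGAA, against 7.69% and 7.31% of all matched genes. In the second list only 4 of 20 (20.0%) and 2 of 20 (10.0%) held them. The antiviral genes, most of which still rose on IFN, held them in 10 of 23 (43.5%) and 5 of 23 (21.7%). Both strands were searched, the 2 patterns can overlap, and a link of these letters to the TNF effect was not tested.

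Irf1, the transcription factor, showed the same pattern. It was raised by TNF alone from 35.8 ± 6.76 to 144.5 ± 14.2 CPM, a log2 effect of 2.02 ± 0.15 (SE) against 0.52 with IFN (difference −1.50 ± 0.20, adjusted p = 4.22e-05). Cd274 rose with TNF alone from 8.49 ± 0.916 to 52.4 ± 11.1 CPM, while it was 473 ± 210 CPM with IFN and 605 ± 186 CPM with both (difference −2.27 ± 0.34, adjusted p = 0.00024). Zbp1, a nucleic acid sensor of necroptosis, went from 3.03 to 75.9 CPM with TNF alone and from 282 to 400.1 CPM on IFN (difference −4.14 ± 0.41, adjusted p = 2.58e-07). Its rise on IFN was not called (0.51 ± 0.27, adjusted p = 0.161), but each replicate set alone called it (0.43 and 0.60), as did the block (0.52, adjusted p = 0.0204) and a fit of only the 8 libraries (0.48, adjusted p = 0.045). The calls of the sets rest only on the spread within a set.

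Others among these genes still rose on IFN, but by a smaller factor. Ubd, the ubiquitin-like modifier FAT10, went from 0.257 to 40.3 CPM with TNF alone and from 507 to 2558 CPM on IFN (difference −4.92 ± 0.91, adjusted p = 0.0027). Slamf8 had 0 counts in si-control and 1.24 ± 0.23 CPM with TNF alone, so the size of its difference depends on the prior count of the fit. On IFN it rose from 5.88 to 32.5 CPM (2.46 ± 0.24, adjusted p = 1.72e-08). Ms4a4d went from 0.446 to 10.2 CPM with TNF alone and from 30.8 to 51.3 CPM on IFN (difference −3.73, adjusted p = 6.42e-06), and its rise on IFN (0.74, adjusted p = 0.0333) was lost without any of 4 libraries (0.65 to 0.73). Vcam1 (−0.96, adjusted p = 0.00053), Cxcl10 (−1.90, adjusted p = 0.00782, or −3.01 in replicates 1 and 2 alone and −0.70 in replicates 3 and 4 alone) and Cx3cl1 (−1.25, adjusted p = 0.00782) also had smaller log2 effects under IFN. The same differences for H2-Q6 (−3.57, adjusted p = 0.0438) and H2-Q7 (−3.19, adjusted p = 0.0215) were lost on leaving out any of 11 and 5 libraries (−3.76 to −3.15 and −3.07 to −2.83).

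**Figure D3:**
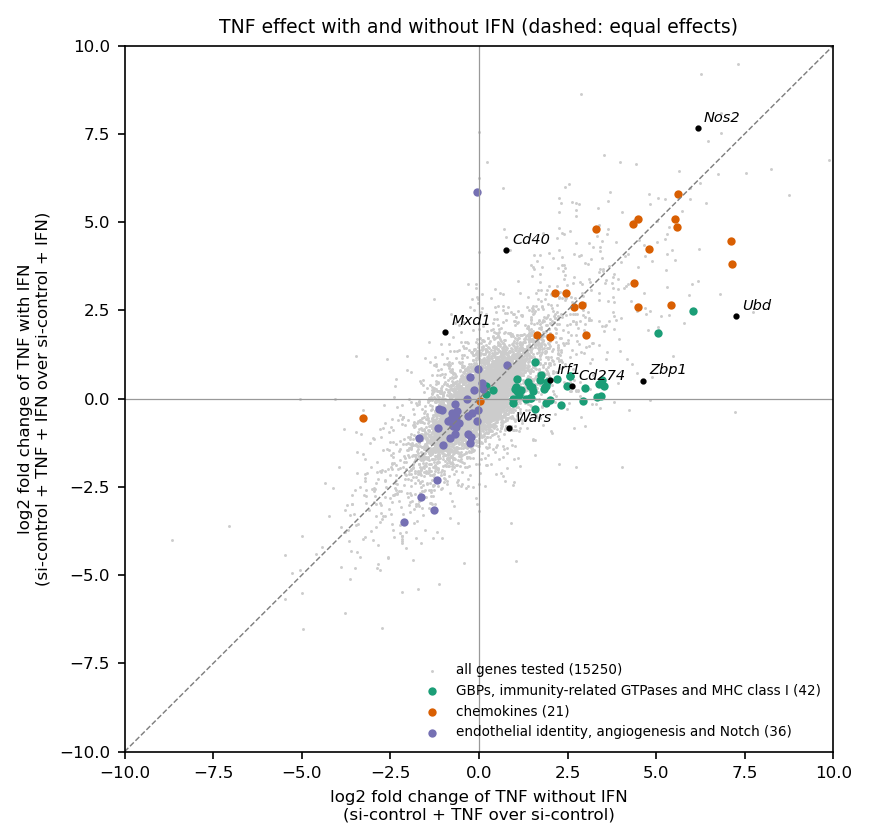
Log2 fold change of TNF with IFN present (vertical) against TNF without IFN (horizontal) for 15250 genes, from separate libraries; the dashed line marks equal effects, and 1 gene lies outside the axes. Guanylate-binding, immunity-related GTPase and MHC class I genes (green) lie mostly to the right and between −0.285 and 0.67 on the vertical axis, apart from H2-Q6 (2.48), H2-Q7 (1.87) and Gbp2b (1.03), while chemokines (orange) lie high on both.

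Of the 64 genes with a more positive effect under IFN, TNF called 53 higher with IFN and 18 higher without it, while 18 were called lower without it. Cd40 was 0.926 ± 0.398 CPM in si-control, 1.60 ± 0.614 with TNF, 0.662 ± 0.307 with IFN and 12.3 ± 4.61 CPM with both (SD, n = 4), so that it stood out with the 2 cytokines together (difference 3.43 ± 0.48 on the log2 scale, adjusted p = 6.65e-05). Mxd1, a MAX partner that opposes MYC, was called lower with TNF alone (24.9 to 12.9 CPM) and higher on IFN (22.9 to 85.2 CPM; difference 2.85 ± 0.51, adjusted p = 0.00175). Ntrk2, the BDNF receptor, was at most 1.63 CPM in any of the 8 libraries and its rise on IFN was not called (1.12, adjusted p = 0.0972), while its difference was (3.71, adjusted p = 0.0147). The rise was called without si-control + IFN replicate 1 (1.55, adjusted p = 0.0415). Fam84a (3.00, adjusted p = 0.0261) and Ccdc162 (2.62, adjusted p = 0.0258) completed the named genes, with calls lost without any of 7 and 8 libraries (2.45 to 3.04 and 2.29 to 2.57). On IFN, Fam84a rose to 14.7 to 19.4 CPM in replicates 1 and 2 and to 2.40 to 2.59 CPM in replicates 3 and 4, and for Ccdc162 replicates 3 and 4 by themselves gave no call (0.90, adjusted p = 0.0706). Its interaction was not called there either (1.43, adjusted p = 0.358).

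For many of the strongest genes the log2 effect of TNF was not shown to differ. The difference (± SE) was 1.48 ± 1.18 for Nos2 (adjusted p = 0.8), −0.43 ± 1.275 for Cxcl9 (adjusted p = 0.977), 0.18 ± 0.52 for Ccl5 (adjusted p = 0.977) and 0.04 ± 0.30 for Icam1 (adjusted p = 0.992). On the CPM scale Nos2 was 0.238 ± 0.249 in si-control, 16.7 ± 2.24 with TNF, 6.25 ± 6.82 with IFN and 1264 ± 360 with both. Cxcl9 was 0.0737 ± 0.0569, 3.51 ± 0.606, 112 ± 71.2 and 3818 ± 738 CPM in the same order. Log2 effects that were not shown to differ thus stood beside very different gains in CPM.

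**Figure D4:**
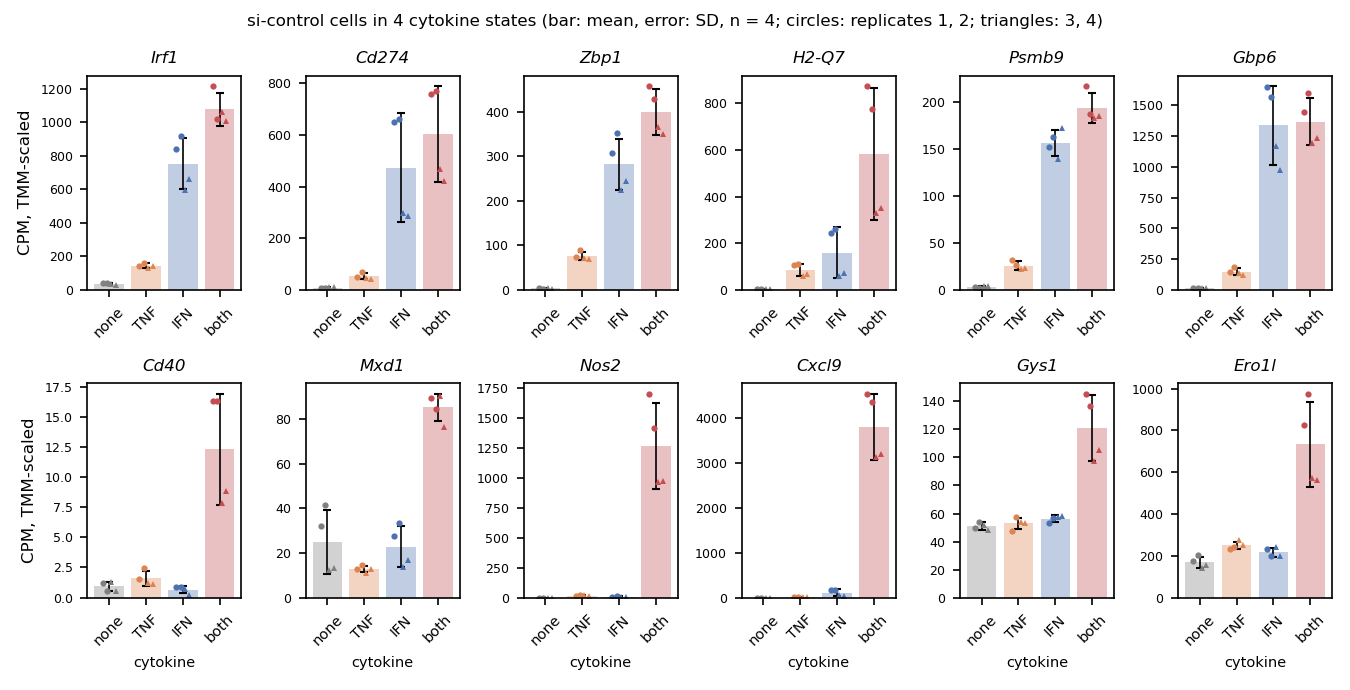
CPM of 12 genes in si-control cells with no cytokine, TNF, IFN or both; bars are means, error bars SD (n = 4), circles replicates 1 and 2 and triangles replicates 3 and 4. All 12 genes have their highest mean with both cytokines, but by different margins over IFN. Gbp6 stands at 1339 CPM with IFN and 1368 CPM with both, Irf1 at 753 and 1077 CPM and Zbp1 at 282 and 400.1 CPM. Mxd1 stands at 22.9 and 85.2 CPM, and Ero1l at 218 and 733 CPM.

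Last, the step was compared with the same step in si-dnmt cells, which received siRNA against Dnmt1 (si-dnmt + TNF + IFN against si-dnmt + IFN, 8 further libraries). There 1882 genes were called higher and 1723 lower. Of the rises 1493 were called in both, 62.7% of those in si-control and 79.3% of those in si-dnmt, and of the falls 1291 (62.9% and 74.9%). The difference between the siRNAs was called for 6 genes, 3 each way, and for 27 genes by DESeq2 and 113 with the replicate block. An unadjusted p under 0.05 was found for 843 of 15250 genes, where a share of about 0.05 would pass with no differences at all. Tma16, a ribosome biogenesis factor, rose from 12.4 ± 2.76 to 36.9 ± 4.00 CPM in si-control and from 10.1 ± 1.12 to 100.5 ± 22.1 CPM in si-dnmt (difference 1.75 ± 0.22, adjusted p = 0.000129). Nmnat2, an NAD synthesis enzyme, fell from 47.7 ± 2.70 to 6.52 ± 0.699 CPM in si-control and from 15.5 ± 1.94 to 5.47 ± 0.484 CPM in si-dnmt (difference 1.37, adjusted p = 0.00958). The fall of Col3a1 was smaller in si-dnmt (difference 2.98, adjusted p = 0.0318), a call lost on leaving out any of 11 libraries (2.76 to 3.03).

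The 3 genes with a less positive effect in si-dnmt were Ero1l, an oxidase of the endoplasmic reticulum, Gys1, muscle glycogen synthase, and Appl2, an endosomal adaptor. Ero1l rose from 233, 201, 240 and 197 CPM to 827, 976, 570 and 561 CPM in si-control (1.75 ± 0.15, adjusted p = 9.26e-10), and from a mean of 232 to 308 ± 61.5 CPM in si-dnmt (difference −1.34, adjusted p = 0.00319). Gys1 rose from 52.9, 57.0, 57.4 and 58.1 CPM to 146, 137, 97.4 and 105 CPM in si-control (1.11 ± 0.12, adjusted p = 3.9e-08), and was 60.5 ± 3.12 and 61.8 ± 13.0 CPM in si-dnmt (difference −1.08, adjusted p = 0.00319). Appl2 rose from 24.5 ± 0.238 to 39.0 ± 8.59 CPM in si-control and was 30.1 ± 2.50 and 23.7 ± 2.06 CPM in si-dnmt (difference −1.01, adjusted p = 0.00326). In si-control the effect of TNF on Ero1l, Gys1 and Appl2 was more positive with IFN than without, by 1.18 (adjusted p = 0.00166), 1.05 (adjusted p = 0.000475) and 0.65 (adjusted p = 0.0368). The difference with IFN and that between the siRNAs share the same 8 libraries, so they are not independent. For Appl2 the first of these was lost on leaving out any of 11 libraries (0.58 to 0.68).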

How the data were processed

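Bulk RNA-seq libraries of Veravec cells were analysed from the gene counts that the authors deposited, 1 table per library and 1 merged by symbol. The deposited counts are whole featureCounts values without normalization. The submitters' processing notes name cutadapt 4.9, FastQC 0.12.1, MultiQC 1.27.1, featureCounts and DESeq2. The aligner, genome build, annotation and strand setting were not given in the sources used here. Overlapping genes and antisense partners therefore cannot be told apart, and paralogs can share reads. The merged table equalled the summed library tables (0 cells differed), and 203 of 54532 identifiers shared a symbol.

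All 32 libraries were fitted with 8 group means by edgeR 4.0.16 (R 4.3.3) after filterByExpr (minimum count 10) with TMM factors (0.88 to 1.09). Fitted changes used a prior count of 0.125. The script was tested on simulated data. Same-numbered libraries of the 2 groups deviated together (r = 0.361 to 0.418), but the main fit used no pairing, because the labels give no day or batch. Replicates 2 and 3 matched the other number of their set better (r = 0.46 with 1 and 0.439 with 4), so the correlation also follows the sets 1 and 2 against 3 and 4. A fit with the replicate number as a block was an alternative. Others were RLE scaling, no low-count filter, DESeq2 1.42.0, only the libraries of a contrast, replicate sets, leaving out each library, and counts by identifier.

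The members, the 23 gene lists and the tests were chosen with earlier results of these data known. Named genes are 21 of known interest, the 10 largest rises and 10 largest falls (called, groups not overlapping, mean of at least 1 CPM in the higher group, no Gm or Rik symbols), up to 2 called members each way per list, and the largest interactions (5 each way with IFN, 3 each way with the siRNA); 3 genes that the rule names are not reported here. Promoter windows come from RefSeq (GRCm38.p6), where 10527 tested genes matched.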

Additional observations from a re-analysis of the deposited data

Results flagged for a closer look

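Dixon's ratio was examined for the named genes in both groups of 4 libraries, where chance flags about 1 group in 20, and 9 of 212 groups held a library apart from the rest. In si-control + IFN the lowest library of Mmp13 was at 0.218 CPM against 0.504 to 0.54 in the others, and that of Vsir at 2.24 CPM against 2.91 to 2.95. In the same group the reads of Tnip3 (0.108 CPM), H2-Oa (0.112 CPM) and Mmp9 (0.109 CPM) were all in 1 library. In si-control + TNF + IFN the reads of Kcnq3 (0.0521 CPM) and Ptprq (0.123 CPM) were all in 1 library, and the highest library of Lmcd1 was at 0.529 CPM against at most 0.0529 in the others. Fosl1 reached 68.7 CPM in 1 library of that group against 56.7 to 57.6.

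The effect of TNF differed with IFN present for 163 genes. Named genes with a less positive log2 effect under IFN were Slamf8 (−5.26), Ubd (−4.92), Zbp1 (−4.14), Ms4a4d (−3.73), H2-Q6 (−3.57), H2-Q7 (−3.19), Col3a1 (−2.28), Cd274 (−2.27), Gbp8 (−1.93), Cxcl10 (−1.90), Irf1 (−1.50), Cx3cl1 (−1.25), Nmnat2 (−1.21) and Vcam1 (−0.96). Those with a more positive effect were Ntrk2 (3.71), Cd40 (3.43), Fam84a (3.00), Mxd1 (2.85), Ccdc162 (2.62), Ero1l (1.18), Gys1 (1.05), Ccne1 (0.94) and Appl2 (0.65). The calls of Col3a1 and Ccne1 were lost on leaving out any of 4 and 9 libraries (−2.21 to −2.04 and 0.82 to 0.94).

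The effect of TNF added to IFN differed between the siRNAs for 6 genes, by 2.98 for Col3a1, 1.75 for Tma16, 1.37 for Nmnat2, −1.34 for Ero1l, −1.08 for Gys1 and −1.01 for Appl2.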

How the results depend on the processing

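Counts of genes raised or lowered by TNF on IFN stayed within 1.5 times of those reported in every alternative at the same threshold, with 2112 to 2393 raised and 1632 to 1877 lowered on leaving out each library in turn, 3331 and 3062 with the replicate block, and 769 and 678 when at least a 2-fold change was required. The interaction counts depended more on the fit. More positive effects under IFN were called for 25 genes with only the libraries of the contrast, 299 with the replicate block, 688 in replicates 1 and 2 alone, 274 in replicates 3 and 4 alone, 114 by DESeq2, 38 at 2-fold or more, and 42 to 78 on leaving out a library, the lowest without si-control + TNF replicate 1. Less positive effects were called for 347, 945, 387 and 179 genes with the replicate block, in replicates 1 and 2, in replicates 3 and 4 and by DESeq2, and for 75 to 113 on leaving out a library. Differences between the siRNAs were called for 113, 162, 630 and 27 genes in the same order, and for 5 to 9 on leaving out a library. The cause was not tested. Of 101 named genes called, 89 stayed called in every alternative that could fit them, and apart from Cd274 and Zbp1 the block changed no call of the 106 named genes on IFN. Among named effects on IFN, direction turned only for Ciita, which was not called and was −0.23 to 0.35 on leaving out a library. Where few reads stood in the lower group, 1 library set the fitted size: leaving it out gave 8.91 for Saa3, 7.14 for Tnip3, 7.29 for H2-Oa, 6.81 for Gja4 and 8.14 for Mmp9 (without 1 si-control + IFN library each), −7.59 for Ptprq, and −5.88 or −8.19 for Kcnq3 without replicate 2 of either group. In a fit of only the libraries of the contrast, interactions of Cxcl10, H2-Q6, Ccne1, Fam84a, Ccdc162, Nmnat2 and Appl2 with IFN and of Gys1 with the siRNA were no longer called (adjusted p = 0.0507 to 0.195), while their sizes hardly moved (−1.91 for Cxcl10, −1.22 for Nmnat2, 0.65 for Appl2 and −1.10 for Gys1).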

Other observations

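Glycolysis and low-oxygen response genes, which the report does not cover, were listed after their values had been seen, so their counts are descriptions. Over all genes 15.6% were called higher and 13.5% lower with TNF added to IFN, and 16.1% and 14.6% with TNF alone. Of 17 glycolytic enzymes and transporters tested, 11 were called higher with TNF added to IFN and none lower (median log2 fold change 0.479). With TNF alone 3 were called higher, near the all-gene share, and 1 lower (median 0.187). The difference between the effects with and without IFN was not called for Hk1 (0.58, adjusted p = 0.0552) or Hk2 (0.62, adjusted p = 0.308). Hk2, a hexokinase, rose from 38.7 ± 6.17 to 136 ± 4.53 CPM on IFN (SD, n = 4; 1.81 ± 0.17, adjusted p = 5.36e-09). It was also called higher with TNF alone (30.5 to 69.7 CPM, 1.19, adjusted p = 4.31e-06). Slc2a1, the glucose transporter GLUT1, rose from 308 ± 69.8 to 498 ± 120 CPM (adjusted p = 0.00848), against 274 and 257 CPM without and with TNF alone (adjusted p = 0.767), a difference between effects that was not called (0.78, adjusted p = 0.243). Of 21 hypoxia-responsive genes, which include the Ero1l and Gys1 described above, 11 were called higher and none lower (median 0.667). With TNF alone 3 were called higher and 2 lower, not above the all-gene shares. Vegfa, the main vascular growth factor, rose from 11.1 ± 1.96 to 51.6 ± 2.93 CPM (2.21 ± 0.37, adjusted p = 4.24e-05), and Adm, adrenomedullin, from 54.1 ± 18.5 to 146 ± 46.6 CPM (1.44 ± 0.35, adjusted p = 0.0025). Vegfa was called with TNF alone too (6.70 to 23.6 CPM, 1.81, adjusted p = 0.000466), and Adm was not (0.66, adjusted p = 0.155). Neither difference between effects was called (0.40, adjusted p = 0.926, and 0.78, adjusted p = 0.681).

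Amino acid and integrated stress response genes, also listed afterwards, gave 10 called higher and 1 lower of 14 (median 1.18). Over all genes these shares were 15.6% and 13.5%. With TNF alone 12 of these genes were called higher and none lower (median 1.41), so the list rose without IFN too. Asns, asparagine synthetase, rose from 85.2 ± 16.1 to 229 ± 12.5 CPM (1.43 ± 0.24, adjusted p = 3.61e-05) and Shmt2, a mitochondrial serine enzyme, from 62.9 ± 5.77 to 174 ± 7.08 CPM (1.47 ± 0.20, adjusted p = 2.67e-06). TNF alone raised both as well, Asns by 1.92 (adjusted p = 6.16e-07) and Shmt2 by 1.585 (adjusted p = 9.02e-07). Neither difference between effects was called (adjusted p = 0.713 and 0.973). The fall was Wars, tryptophanyl-tRNA synthetase, from 1417 ± 271 to 799 ± 87.4 CPM (−0.83 ± 0.13, adjusted p = 2.01e-05), although TNF alone raised it from 62.4 to 112 CPM (difference −1.67, adjusted p = 1.73e-06).

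Wars was 1 of 12 genes called in opposite directions with and without IFN. Higher on IFN and lower without it were Mxd1, Ccdc80, Mxi1, Fzd7, Eml6, St3gal5 and Hspa2. Lower on IFN and higher without it were Wars, Grk5, Plgrkt, Cyp1b1 and Eif4e3. Fzd7, a Wnt receptor, went from 33.2 to 22.8 CPM with TNF alone and from 39.0 to 67.0 CPM on IFN (difference 1.32, adjusted p = 2.58e-07).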
